A study of Drosophila melanogaster with 3 samples.

Results

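The 10 genes described here encode heat shock proteins, their constitutive relatives, a pair of cochaperones and the factor that switches the heat shock response on. They are Hsp22, Hsp26, Hsp27, Hsp68, Hsp83, DnaJ-1, stv, Hsc70-3, Hsc70-4 and Hsf, matched by symbol in the Ensembl annotation, and they are 10 of 13968 protein-coding genes and of 18277 annotated genes. The data are chromatin immunoprecipitation sequencing (ChIP-seq) peak lists for CG12219, a Drosophila melanogaster gene known by its annotation number, in whole embryos of both sexes aged 0 to 18 h. All 3 biological replicates belong to 1 group, a transgenic line in which CG12219 carries green fluorescent protein (GFP) at its C-terminal end, and the antibody field names CG12219. There was no heat-shocked sample, no second condition and no untagged line among the samples used here, so every statement below is about where calls lie and how they rank. Whole embryos mix all cell types, so many cells with little of the protein at a site and few cells with much of it cannot be told apart.

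Chaperones hold other proteins in a foldable state or help them to fold. Small heat shock proteins bind unfolding proteins and keep them from aggregating, Hsp70 proteins and their constitutive cognates (Hsc70) refold them in cycles driven by ATP, J-domain proteins such as DnaJ-1 deliver clients to Hsp70, and Hsp90 proteins such as Hsp83 act late in the folding of kinases and receptors. In flies, heat shock factor (Hsf) binds arrays of a short inverted element upstream of the inducible genes, and several of these genes carry a paused RNA polymerase before heat shock. The members were placed in 3 classes from textbook expression: heat-inducible (Hsp22, Hsp26, Hsp27 and Hsp68), present without stress and raised further by heat (Hsp83, DnaJ-1 and stv), and constitutive (Hsc70-3, Hsc70-4 and Hsf).

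The lists used were 1 of 4187 peaks that passed the irreproducible discovery rate (IDR) step, 1 pooled list and 1 list per replicate, the last 4 with 30000 calls each. Sorted by signal, the pooled list opens with these same 4187 peaks. A rank below is a call's place by signal value within its own list, with rank 1 the strongest, and a replicate's top calls are its first 4187. The 4 longer lists include background calls by design, so a call of low rank in them is not by itself a binding site. An offset is the distance from a peak's summit to the closest transcription start site (TSS) of the gene, negative upstream, and a summit within 500 bp counted as at the TSS. Coordinates are in dm6 and count from 1. How deeply each library was sequenced is unknown.

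Among member peaks within 500 bp of a TSS, the strongest IDR peaks lay at Hsp83, Hsp27 and Hsp26, with summits at -112, -161 and -115 bp from a TSS in that order, and all 3 replicates placed these peaks among their top calls. Together with Hsc70-4, 4 of the 10 members had an IDR summit within 500 bp of a TSS, where 14.3% of protein-coding genes did. Within 1000 bp the count was 7 of 10, adding Hsp22, stv and Hsc70-3, against 17.3% of protein-coding genes. The same 7 genes had the nearest TSS to an IDR summit at any distance, against 17.6%. The 3 members with no IDR peak by any of these rules were DnaJ-1, Hsp68 and Hsf. The members have 24 TSS in all, and a gene with more TSS has more sequence in its windows, which was not adjusted for. With 10 genes chosen when earlier results of these data were known, these counts were given no test.

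There were 9 distinct IDR peaks at the 7 genes, with 2 each at Hsp83 and stv. The reference sequence is shown at the summits of the strongest 3 of those within 500 bp of a TSS, because the later results on the heat shock element refer to it. The sequences are from the RefSeq genome (Release 6 plus ISO1 MT), read 5′ to 3′ on the strand of the gene, with the summit base in capitals. The Hsp83 stretch (chr3L:3193092-3193116, plus strand) is shorter since it lies in an exon, and those of Hsp27 (chr3L:9383872-9383932, plus strand) and Hsp26 (chr3L:9377512-9377572, minus strand) lie outside any gene.
Hsp83: actgatctacccTagtattcacagg
Hsp27: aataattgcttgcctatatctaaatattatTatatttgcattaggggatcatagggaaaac
Hsp26: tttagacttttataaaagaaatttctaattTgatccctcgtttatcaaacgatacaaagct
The A+T content of the 101 bp around the summit was 49.5% at Hsp83, 68.3% at Hsp27 and 74.3% at Hsp26. Over the 9 member peaks its median was 68.3%, against a median of 66.3% (quartiles 59.4% and 72.3%) over all 4187 IDR peaks.

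Hsp83 encodes the cytosolic Hsp90 of flies. Its stronger peak (3L, 3192931 to 3193265) held IDR rank 131, with the summit at -112 bp from the second of its 2 TSS, in exon sequence of the transcript from the first TSS and outside the coding sequence. The replicates ranked it 82, 239 and 82 in replicates 1, 2 and 3, and their summits lay within 14 bp of the pooled one. The rank in replicate 2 was thus 2.92 times that in the other two. The weaker peak (3L, 3194144 to 3194392) lay in an Hsp83 intron at 1059 bp from that TSS, with IDR rank 326 and ranks 282, 344 and 363. Here the replicates differed less, by a factor of 1.29 between the lowest and the highest rank. Both peaks were among the top calls of every replicate. Of the 6255 protein-coding genes with a pooled call of any rank within 500 bp of a TSS, Hsp83 stood at place 102 by the signal of its strongest call.

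The stronger Hsp83 peak was compared with the peaks of 1906 protein-coding genes by their ranks in the 3 replicates, likeness being the sum over replicates of the absolute difference in log2 rank. The closest was the peak of Trp1 (2L, 10010098 to 10010357), with a sum of 0.78 and ranks 87, 176 and 98. Ptp4E, a receptor tyrosine phosphatase gene (X, 4939849 to 4940109), followed with 1.04 and ranks 92, 203 and 128. CG9004 and mRpL23, the latter a mitochondrial ribosomal protein gene, shared the next peak (3L, 2373442 to 2373758), with 1.06 and ranks 86, 149 and 66.

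Hsp27 and Hsp26 encode small heat shock proteins that are also made during normal development. The Hsp27 peak (3L, 9383778 to 9384033) held IDR rank 233 at -161 bp. Its ranks were 269, 233 and 220, so its replicates lay within a factor of 1.22 of each other, and the 3 summits lay within 9 bp of the pooled summit. The Hsp26 peak (3L, 9377468 to 9377650) held IDR rank 854 at -115 bp from the first of 2 TSS, and its ranks were 1370, 744 and 952. Replicate 1 ranked Hsp26 lowest, with a factor of 1.84 between the extremes. The replicate ranks of Hsp27 and Hsp26 did not overlap. Among the 6255 genes with a pooled call within 500 bp, Hsp27 stood at place 171 and Hsp26 at place 532.

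**Figure D1:**
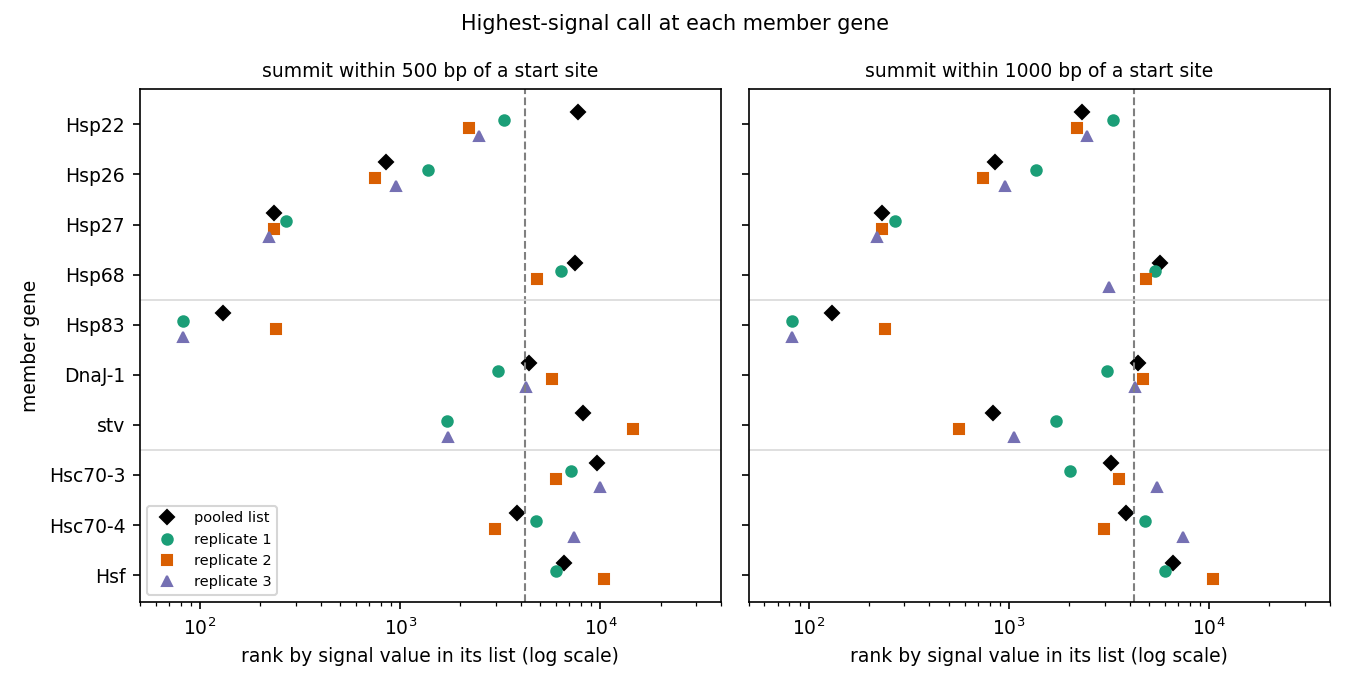
Rank of the highest-signal call at each member gene (x axis, log scale, strongest at the left) with its summit within 500 bp (left panel) or 1000 bp (right panel) of a TSS, for the pooled list (diamonds) and replicates 1 to 3 (circles, squares, triangles). The dashed line marks rank 4187, the length of the IDR list, and grey lines part the inducible, the basal and heat-induced, and the constitutive genes from top to bottom; a missing symbol means no call in that window. Hsp83, Hsp27 and Hsp26 lie left of the line in all lists. In the wider window every symbol of Hsc70-3 moves left, as do the pooled symbol of Hsp22 and part of those of stv, Hsp68 and DnaJ-1. Hsp68 gains a symbol of replicate 3 left of the line, at rank 3143.

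Hsp22 encodes a small heat shock protein of mitochondria, and its peak lay just past the 500 bp limit. The IDR peak (3L, 9373256 to 9373645) had rank 2325 with its summit at 520 bp from the first TSS, in exon sequence that Hsp22 shares with its neighbour CG4456 and outside the coding sequence of both. Replicates 2 and 3 ranked their counterparts 2198 and 2466, whereas replicate 1 ranked its own 6346, outside its top calls. In the 500 bp window, replicate 2 gave Hsp22 this call at -466 bp from the second TSS, and replicate 3 gave it at 492 bp from the first. The highest-signal call of replicate 1 in the window was another one, of rank 3289 at -179 bp, which was also at 30 bp from a TSS of CG4456 and -255 bp from that of Hsp67Bc. In the pooled list the call upstream of the first TSS, at -162 bp, was at rank 7712. In replicates 2 and 3 the strongest Hsp22 call thus lay between the 2 TSS of the gene. In replicate 1 it lay upstream of the first TSS.

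Hsp68 encodes an inducible Hsp70 protein and had no IDR peak within 1000 bp. Its promoter call had pooled rank 7474 at -50 bp, and ranks 6372 at -16 bp and 4840 at -47 bp in replicates 1 and 2. Replicate 3 had no call within 500 bp of the TSS, so none of the 3 replicates had a top call there. The call farther upstream, at -929 bp with pooled rank 5667, was also -48 bp from the start of SMC1, which encodes a cohesin subunit. Replicates 1, 2 and 3 ranked their calls at the SMC1 start 5352, 10788 and 3143.

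The 6 near-identical heat-inducible Hsp70 copies at 87A and 87C, which are no members but belong to the same class, had no call at all. In none of the 5 lists did a call of any rank lie in Hsp70Aa, Hsp70Ab, Hsp70Ba, Hsp70Bb, Hsp70Bbb or Hsp70Bc (3R, 11954163 to 11956544 for Hsp70Aa and 12509076 to 12511461 for Hsp70Bc) or within 1000 bp of them. How reads that fit several copies were placed is not given in the sources used here, so the lack of a call cannot be read as lack of the protein.

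stv (starvin) encodes a BAG-domain cochaperone of Hsp70. It had 2 IDR peaks, both just past the 500 bp limit. The stronger (3L, 13476881 to 13477022) held rank 829 at -557 bp from the first of 4 TSS, outside any gene. Its replicates ranked it 1712, 565 and 1061, a factor of 3.03 between the extremes. Replicates 1 and 3 each had a pair of overlapping calls here, at -637 and -422 bp in replicate 1 and at -608 and -408 bp in replicate 3, and replicate 2 had its strongest at -520 bp. The stronger of the pair in replicate 1, at -422 bp, lay 135 bp from the pooled summit. The weaker peak (3L, 13479727 to 13480116) lay in a stv intron at -522 bp from the second TSS, with IDR rank 2899 and ranks 4128, 3424 and 3629. Both were top calls in all replicates. In the 500 bp window the replicate ranks of stv spread from 1712 to 14482, since the stronger call of replicate 2 fell outside it.

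DnaJ-1 encodes an Hsp40 J-domain protein, and its pooled call lay just below the IDR list. Its call at 52 bp from the TSS had pooled rank 4386, where the list ends at 4187. Replicate 1 ranked it 3075 at 45 bp, inside its top calls. Replicate 3 ranked it 4261 at 6 bp, just outside, and replicate 2 ranked its call at 52 bp 9692, with a stronger call in the window at 386 bp of rank 5731. A further pooled call, at -968 bp with rank 5623, was 184 bp from the start of the neighbouring gene Usp47, in its exon, and nearer to that start than to the start of DnaJ-1.

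Hsc70-4 encodes the main cytosolic Hsp70 cognate. Its IDR peak (3R, 15242279 to 15242668) had rank 3847 at -213 bp from the first of 6 TSS, and it was also -238 bp from the start of the divergent gene tefu, which encodes the ATM kinase. Replicates 2 and 3 ranked their counterparts 2981 and 7417. Replicate 1 had its closest call 245 bp away, at 32 bp downstream of the TSS, with rank 4786. The peak was therefore a top call in 1 replicate only, and of the 4 members with an IDR summit at a TSS it was the least alike between replicates by this count.

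Hsc70-3 encodes the Hsp70 of the endoplasmic reticulum, called BiP in mammals. The IDR peak (X, 11807452 to 11807841) had rank 3215 at -530 bp from the first of 4 TSS, outside any gene. The replicates ranked it 2014, 3544 and 5516, so replicate 3 placed it outside its top calls, and the 3 summits lay within 10 bp of the pooled one. At the 500 bp limit its strongest calls ranked 7165, 6026 and 9940, none of them a top call.

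Hsf encodes heat shock factor itself, a transcription factor made without stress. It had no IDR peak. Its pooled call of rank 6559 lay in an intron at 421 bp from the TSS. Replicates 1 and 2 had that call at ranks 5998 and 10476, at 421 and 422 bp, and replicate 3 had no call within 1000 bp.

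**Figure D2:**
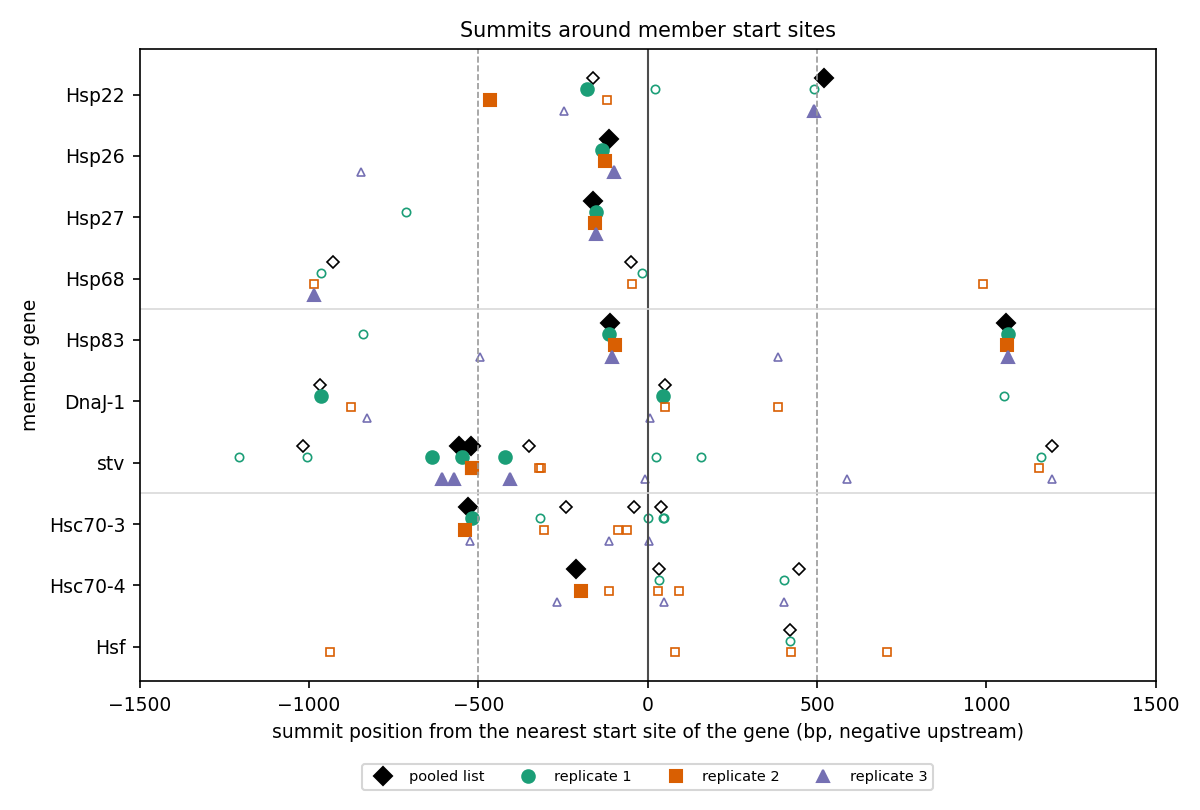
Position of calls from the nearest TSS of each member gene (x axis, bp, negative upstream), for the pooled list and the 3 replicates. Calls beyond the ends of the axis are left out, and dashed lines stand at 500 bp either side. Past 1000 bp a call is drawn only where the member has the TSS nearest to it. Filled symbols are among the first 4187 calls of their list, which for the pooled list are the IDR peaks, and open symbols are weaker calls. The filled symbols of Hsp26 and Hsp27 stack at one place upstream and those of Hsp83 at one place upstream and one downstream near 1059 bp. Filled symbols of stv and Hsc70-3 lie near or past the 500 bp lines, as do those of Hsp22 except the replicate 1 call at -179 bp, and Hsf has open symbols only.

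Of the 9 member peaks, 4 thus had their summit just past the 500 bp limit, at 520, -557, -522 and -530 bp, and the count of members at a TSS depends on where the limit is set. Of the 9 peaks, 6 had a counterpart within 250 bp among the top calls of all 3 replicates: both at Hsp83, both at stv, and those at Hsp26 and Hsp27. The peaks at Hsp22 and Hsc70-3 had one in 2 replicates, and that at Hsc70-4 in 1. Over the 9 peaks, the ratio of the highest to the lowest rank among the replicates had a median of 2.49. Neither the count of 6 nor this median was worked out over all IDR peaks, so neither can be read as a trait of these genes. Counted by gene, 3 of the 4 members with an IDR summit at a TSS kept it under the rule for all 3 replicates. Of the 1996 protein-coding genes with such a summit, 1246 did.

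All 10 members had a pooled call of some rank within 500 bp of a TSS, where 44.8% of protein-coding genes did. In the replicate lists at any rank the counts were 10, 10 and 8 in replicates 1, 2 and 3, against 47.8%, 47.5% and 42.9%. Hsp68 and Hsf were the 2 without a call in replicate 3. Among the top calls alone, the counts were 6, 5 and 5, against 14.6%, 14.0% and 14.4%. Hsp22, Hsp26, Hsp27 and Hsp83 were in all 3 of these counts, Hsp22 by another call in replicate 1 than in replicates 2 and 3. Replicate 1 added stv and DnaJ-1, replicate 2 added Hsc70-4 and replicate 3 added stv.

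Within 500 bp of a TSS, inducible and constitutive members differed little in the IDR list and more in the replicates. In the IDR list 2 of 4 inducible members had a summit at a TSS and 1 of 3 constitutive members did, a difference of 16.7 percentage points. Of the basal and heat-induced members 1 of 3 did, and of all protein-coding genes 14.3%. Among the top calls of each replicate, Hsp22, Hsp26 and Hsp27 made 3 of 4 inducible members every time, while constitutive members counted 0, 1 and 0 of 3. The shares of protein-coding genes with such a top call were 14.6%, 14.0% and 14.4% in replicates 1, 2 and 3. The differences between inducible and constitutive members were 75, 41.7 and 75 points, with a mean of 63.9 ± 19.2 (SD, n = 3). The inducible counts include Hsp22, whose calls in replicates 2 and 3 lay close to the 500 bp limit, at -466 and 492 bp. In replicate 1 the Hsp22 call counted was another one, at -179 bp, and also 30 bp from a TSS of CG4456. The counterpart of the Hsp22 IDR peak there ranked 6346, outside the top calls. Within 1000 bp, 3 of 4 inducible, 2 of 3 basal and heat-induced and 2 of 3 constitutive members had an IDR summit. Of protein-coding genes 17.3% did. The replicate differences are for the 500 bp limit only and were not worked out within 1000 bp. Constitutive Hsc70-3 had top calls just past 500 bp, at -520 bp in replicate 1 (rank 2014) and -540 bp in replicate 2 (rank 3544). In the other direction, inducible Hsp68 had a top call at -984 bp in replicate 3 (rank 3143). The 2 inducible members with an IDR summit at a TSS, Hsp26 and Hsp27, are also made during normal development. No count was made with them in another class, so the contrast depends on where they are placed. With 4 and 3 genes, 1 gene moves a share by 25 or 33.3 points, and 3 of the 4 inducible genes lie in 1 cluster. The difference between the classes was not tested.

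Hsp22, Hsp26 and Hsp27 belong to the cluster of small heat shock protein genes at 67B, which spans 14.2 kb (3L, 9371511 to 9385694) and holds 9 annotated genes, 8 of them protein-coding. The IDR list had 3 peaks in it, those described above, and the pooled list had 5 calls. The replicate lists had 7, 4 and 6. The strongest lay at Hsp27, at one end of the cluster, and Hsp26 followed in the pooled list and in all 3 replicates. The next was the call between the 2 Hsp22 TSS in the pooled list and in replicates 2 and 3. In replicate 1 it was the call upstream of the first Hsp22 TSS. Hsp23, which encodes another inducible small heat shock protein and lies between Hsp26 and Hsp27, had a pooled call of rank 25999 at -100 bp. Replicates 1 and 3 had calls at Hsp23 of ranks 14235 and 8161, and replicate 2 had none. CG4461 and Hsp67Ba had no call of any rank within 500 bp of a TSS in any list. The call of pooled rank 7712 was within 500 bp of a TSS of Hsp67Bc, CG4456 and Hsp22 alike. Neighbouring small heat shock protein genes thus ranged from IDR rank 233 to no call.

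**Figure D3:**
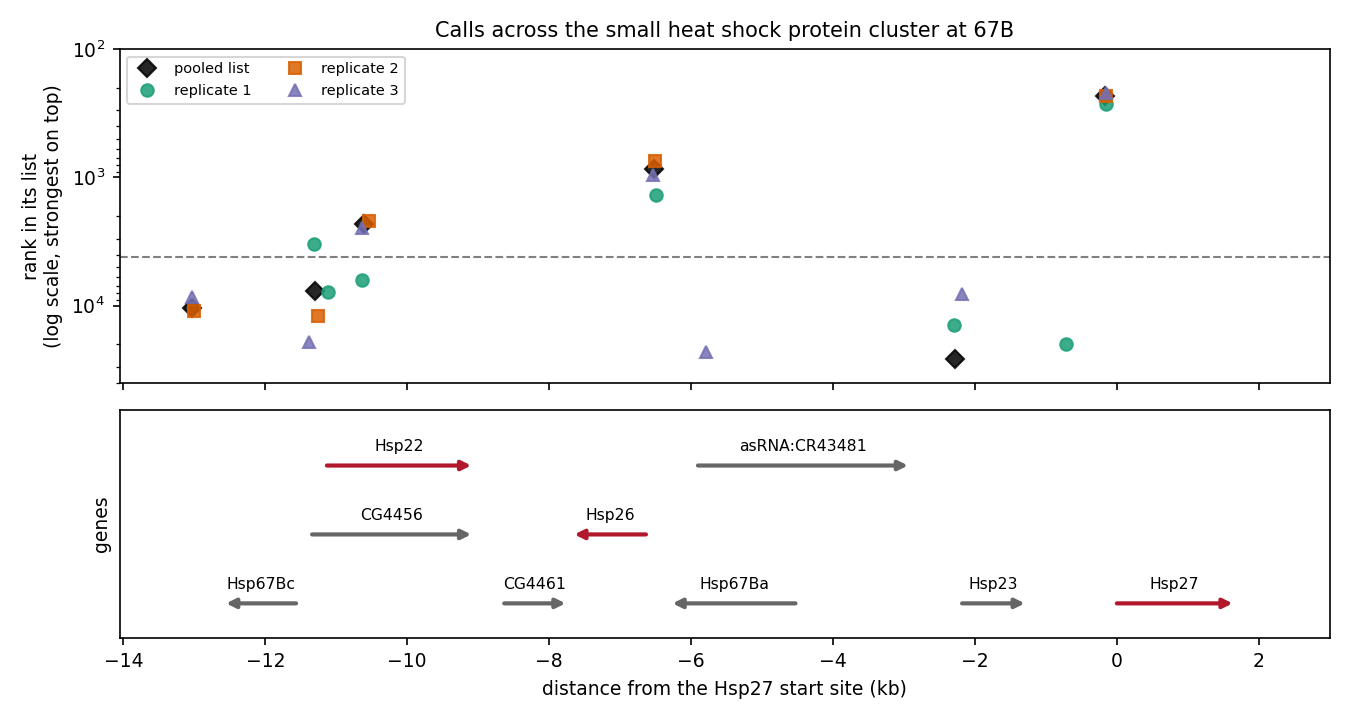
Rank of every call across the 67B cluster (y axis of the upper panel, log scale with the strongest on top) against distance from the Hsp27 TSS (x axis, kb), for the pooled list and the 3 replicates; the dashed line marks rank 4187. The lower panel draws the genes as arrows in the direction of transcription, with member genes in red. Calls of all 4 lists coincide at Hsp27 and lie close together at Hsp26, and calls at Hsp23 all lie below the line.

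The heat shock element was searched as 3 alternating GAA and TTC units with 2 bases between neighbouring units, on both strands, in the 300 bp window from 250 bp before to 50 bp after each TSS. The members have 24 such windows, some of which overlap, and shares are given per window, since a gene with several TSS has several chances of a match. The element was found without a mismatch at 2 members, Hsp68 and Hsc70-4, in 3 of their 24 windows (12.5%), 2 of which hold the same Hsc70-4 element. It was found in 0.42% of 19276 promoter windows of protein-coding genes. The Hsp68 stretch (chr3R:24057450-24057512, minus strand, outside any gene) holds 3 overlapping matches centred at -176, -171 and -166 bp from the TSS. The Hsc70-4 stretch (chr3R:15242943-15242971, plus strand) is centred at -199 bp from the third TSS and lies in exon or intron sequence outside the coding sequence, depending on the transcript. Both are shown with the matched bases in capitals, because they are the 2 strict matches among the members.
Hsp68: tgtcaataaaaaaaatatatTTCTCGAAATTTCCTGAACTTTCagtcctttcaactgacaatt
Hsc70-4: ggcaaggtTTCTCGAACTTTCgaccccag
The gene with the 3 overlapping strict matches, Hsp68, had no IDR peak, and its promoter call at -50 bp had pooled rank 7474. The Hsc70-4 match lay 483 bp from the summit of its IDR peak. No strict match lay within 100 bp of any of the 9 member summits, where 0.239% of the 4187 IDR summits had one.

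Allowing 1 mismatch gave a match in 11 of the 24 member windows (45.8%), against 8.21% of all promoter windows, and in 8 members, all but Hsp27 and Hsf. By this looser form the stronger Hsp83 peak had 4 matches centred within 100 bp of its summit, the nearest 40 bp downstream. The 4 overlap in 1 run from -78 to -51 bp from the second TSS. At the Hsp26 summit there was 1, centred 100 bp upstream, and the nearest at Hsp27 was centred 176 bp upstream. With the whole match required within 100 bp of the summit, 1 of the 9 member peaks had one, the stronger at Hsp83. Of the 4187 IDR summits 5.3% did. The shorter form of 2 units without a mismatch was found in 11 of 24 member windows (45.8%), from 7 members, and in 15.8% of all windows. Within 100 bp of the summit it was found at 4 of the 9 member peaks, against 10.2% of the 4187 IDR summits. Those 4 were the peaks of Hsp26 and Hsc70-4 and the stronger peaks of Hsp83 and stv. At Hsp26 the match from -128 to -121 bp, gaaatttc, lies in the summit sequence printed above. A match here is a match of letters only, and it says nothing of whether Hsf was bound in these embryos.

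Other promoter sequences were searched on both strands in the same windows. TATAAA was found in 15 of 24 member windows (62.5%), from all members but Hsf, and in 42.2% of all windows. GAGAG, the core of the sites of GAGA factor, was found in 13 of 24 (54.2%), from Hsp22, Hsp26, stv, Hsc70-3 and Hsc70-4, and in 33.1% of all windows. TATCGATA, the DNA replication-related element, was found in 2 of 24 (8.33%), 1 each at DnaJ-1 and Hsp83, and in 7.98% of all windows. Its core CGATA, which every such element contains, was found in 9 of 24 (37.5%), from 7 members, and in 45.6% of all windows. The Hsp26 summit sequence printed above shows both TATAAA and CGATA, on its own strand.

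A run of 15 bases at the Hsp83 summit recurred before the second TSS of Hsc70-3, and this was noticed after the sequences were seen. The run occurs 2 times on the 7 chromosomes used, counting both strands. At Hsp83 (chr3L:3193081-3193109, plus strand, in exon sequence outside the coding sequence) it is centred at -121 bp from the second TSS, and at Hsc70-3 (chrX:11806440-11806468, minus strand, in an intron) at -101 bp. The run is in capitals with 7 bases either side.
Hsp83: cgtatcaCAACACTGATCTACCctagtat
Hsc70-3: tgctttcCAACACTGATCTACCactgacg
The calls at these places differ in rank. The Hsp83 summit had IDR rank 131, whereas the pooled call nearest to the Hsc70-3 run, at -41 bp from its second TSS, had rank 12609. The IDR peak of Hsc70-3 lay elsewhere, at -530 bp from the first TSS.

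Beyond the members, 115 symbols of chaperones, cochaperones and regulators of the heat shock response were listed in 9 groups. Of these, 103 matched the annotation by the listed symbol, 10 by another symbol and 2 not at all. Counting each gene once, 27 of 113 had an IDR summit within 500 bp of a TSS, or 23.9%, and without the members 23 of 103 did, or 22.3%. These shares stand beside 14.3% of all protein-coding genes, and no test was made, since the lists were drawn up with earlier results known.

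Among chaperones of the Hsp90 and Hsp70 families, 2 of 3 Hsp90 genes had an IDR summit at a TSS. Besides Hsp83 this was Gp93, the Hsp90 of the endoplasmic reticulum, at rank 3543. Of 7 genes listed as Hsp70 cognates and Hsp110, with the inducible Hsp68 among them, 2 had one. Besides Hsc70-4 this was the mitochondrial cognate Hsc70-5, at rank 799 and -3 bp, ranked 964, 890 and 847 by the replicates. Its summit was also at -298 bp from the TSS of the J-domain gene CG8531. Of 12 small heat shock protein genes 2 had one, Hsp26 and Hsp27.

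Of 33 J-domain protein genes, 10 had an IDR summit at a TSS. The strongest was mrj at rank 299, ranked 376, 279 and 358 by the replicates. CG7130 followed at rank 421 and Rme-8, which acts in endocytosis, at rank 571. The CG7130 summit lay at -325 bp from its TSS and at -11 bp from that of RpLP0, a ribosomal protein gene, and a similar case was CG6693, chosen after its values were seen, whose summit of rank 578 lay 3 bp from the TSS of RpL3. None of 15 Hsp70 and Hsp90 cochaperone genes had one within 500 bp, against 14.3% of protein-coding genes. Within 1000 bp 2 of the 15 did, against 17.3%. Those were stv and Dpit47, which was likewise named after its values were seen.

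Of 20 chaperonin and prefoldin genes, 4 had an IDR summit at a TSS, led by CG11267, the Hsp10 gene, at rank 772, then mgr, a prefoldin subunit gene, at 1148 and CCT3 at 3240. Of 12 folding factors of the endoplasmic reticulum 5 had one, led by prtp at rank 586, then Cnx99A (calnexin) at 1659 and Calr (calreticulin) at 2525. Of 8 regulators 3 had one. Nelf-E, a subunit of the factor that holds paused polymerase, ranked 320, with its summit 3 bp from the TSS of RpL14. The heat-inducible noncoding RNA gene lncRNA:Hsromega ranked 492 at 209 bp from its TSS, and Trl, which encodes GAGA factor, ranked 805 at 121 bp. The summits at CG7130, CG6693 and Nelf-E thus lay closer to the TSS of a ribosomal protein gene than to that of the chaperone gene, and a summit near a pair of TSS cannot be assigned to either gene.

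**Figure D4:**
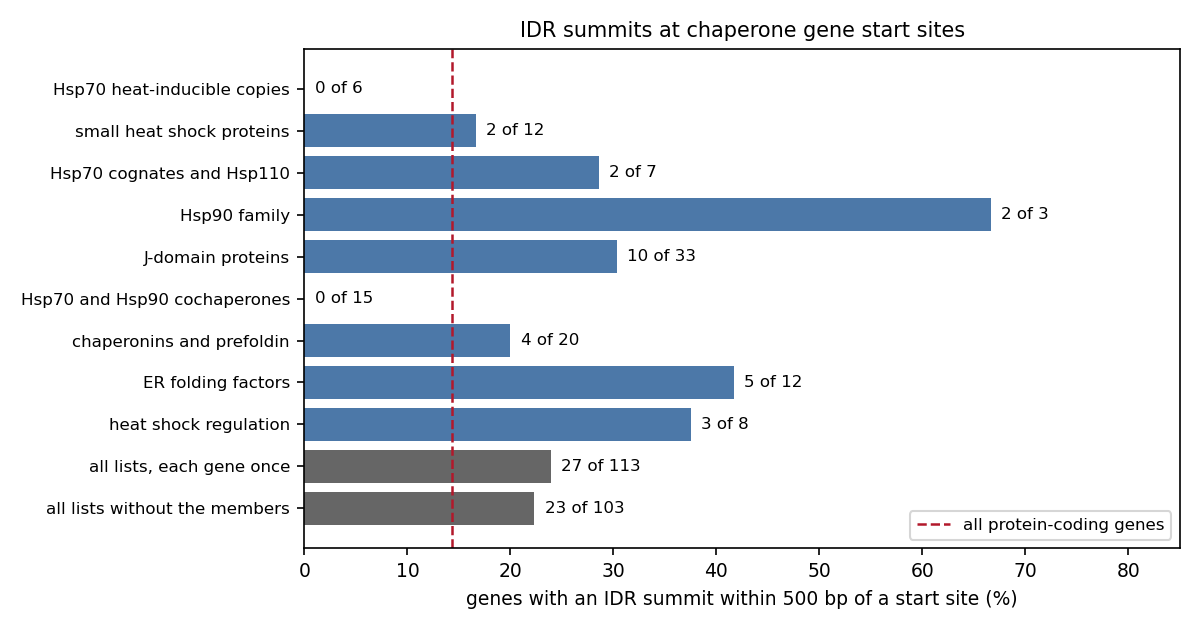
Share of the genes in each list with an IDR summit within 500 bp of a TSS (bars, x axis in percent, with the count beside each), and the share over all protein-coding genes (dashed line, 14.3%). Grey bars count each gene once over all lists, with and without the 10 members; Hsp70 heat-inducible copies and the cochaperones stand at 0.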

How the data were processed

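ChIP-seq of GFP-tagged CG12219 in whole embryos gave 5 peak lists on dm6. Per the labels' file listing, each replicate list was called on that replicate's alignments against a control and the pooled list on all 3. The signal of each call is the authors' deposited value, with no stated normalization, and was used only to rank calls. Ties were broken by the deposited −log10 q value. The summit is the start plus the deposited offset. The sources used here name no aligner, caller or IDR threshold. A free-text label calls the samples input controls, whereas the assay title and the peak lists describe immunoprecipitations, and they were treated as such.

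Python 3.11.15 (numpy 2.4.6, pandas 2.3.3, matplotlib 3.10.9) compared summits with 23694 distinct TSS positions of Ensembl release 115 (annotation 6.54) on 7 chromosomes. The first codon read from the RefSeq sequence was ATG in 99.5% of protein-coding genes. A counterpart in a replicate was a summit within 250 bp. All 10 members are named, with the 3 strongest listed genes per group, the Hsp70 copies, neighbours, and the 3 genes most like Hsp83. The members and lists were chosen with earlier results of these data known. The scripts were tested on simulated data. No fit across genes was made, since there is 1 group.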

Additional observations from a re-analysis of the deposited data

How the results depend on the processing

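The count of members with an IDR summit, 4 within 500 bp, was 7 within 1000 bp and 10 with pooled calls of any rank. The shares of protein-coding genes were 14.3%, 17.3% and 44.8% in that order. Leaving out a replicate meant asking for a counterpart among the top calls of both others. This gave 3 members each time, against 9.9% to 10.7% of protein-coding genes. The same rule with all 3 replicates, added after seeing the data, also gave 3, against 8.92% of protein-coding genes. The loss of Hsc70-4 thus comes with the rule and not with 1 replicate. The wider lists, with 113 genes, gave 17 of their 27 genes among the 2093 strongest IDR peaks and 70 with pooled calls of any rank. They gave 19 to 20 when a replicate was left out and 18 by that rule with all 3. The shares of protein-coding genes were 7.84%, 44.8%, 9.9% to 10.7% and 8.92% in that order. The inducible minus constitutive difference of 16.7 points became 50 among those 2093 peaks, 50 to 50 without each replicate and 50 by that rule with all 3, the 1 constitutive gene being lost each time. It was 8.33 within 1000 bp, 9.52 with the basal and heat-induced genes counted as inducible and 0 with pooled calls of any rank. The median ratio of highest to lowest rank, 2.49, was 1.28 to 1.76 over pairs of replicates, which hold fewer ranks. Peaks with a counterpart among the top calls of the replicates used numbered 6 to 7 when a replicate was left out, a check added after seeing the data. Neither that ratio nor this count of peaks was worked out over all IDR peaks. Members with a heat shock element went from 2 to 8 with 1 mismatch and to 7 with 2 units. The shares of all promoter windows were 0.42%, 8.21% and 15.8% in that order. Those shares are per window, whereas a member with several TSS has several windows. Depth is unknown, so weak calls cannot be told from background. No paired analysis was possible because there is 1 group.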
